A study of Homo sapiens with 8 samples.

Results

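The comparison described here sets ESI017 cells 16 h after WNT3A was added against the same cells at the moment of addition. ESI017, labelled wild type, is an established line of human embryonic stem cells. The comparison holds 4 of the 8 libraries of the series, 2 harvested at 34 h and 2 harvested at 50 h, chosen by the time point in their labels. Hours count from the start of differentiation. Both groups were seeded at 30000 cells per square centimetre in mTeSR1 with a ROCK inhibitor, 24 h before the switch to N2B27. Both were then differentiated in N2B27 with SB (10 µM) and LDN (100 nM), and the protocol names no later change of that medium. The 34 h libraries were taken at the time WNT3A was added, and the 50 h libraries after 16 h with WNT3A at 300 ng/mL. No culture without WNT3A at 50 h was analysed here, so the added WNT3A and the passage of 16 h cannot be told apart in any difference below. The cells are 1 line, the labels give replicate 1 and replicate 2 also as batch 1 and batch 2, and the series describes the second as an independent biological replicate.

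WNT proteins bind Frizzled receptors with LRP5 or LRP6 co-receptors, which stops the breakdown of beta-catenin and lets it join TCF and LEF factors at target genes. Many of those targets dampen the pathway itself, among them a scaffold of the destruction complex and ubiquitin ligases that remove Frizzled. In early neural tissue the pathway is known for setting position along the head-to-tail axis: low WNT goes with forebrain, higher WNT with hindbrain and spinal cord.

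Values are the TPM that the authors deposited, each transcript's share of a library after scaling by length. Differences are 50 h minus 34 h on the log2(TPM + 1) scale, and they understate the change of low genes. Their standard error (SE, n = 2 libraries at each time point) is from limma, a linear model fitted to all genes over all 8 libraries. The variance behind it is pooled over all time points and moderated across genes. It is not the spread of the 34 h and 50 h libraries alone. A gene was called raised or lowered at a Benjamini-Hochberg adjusted p under 0.05 over the 14908 genes that reached 1 TPM in 2 or more of the 8 libraries. Each of the 4 libraries had between 13860 and 13989 genes at 1 TPM or more. Mitochondrially encoded genes held 10.2% and 11.2% of the TPM at 34 h and 8.70% and 10.3% at 50 h, and ribosomal protein genes between 19.6% and 20.2%. The Spearman correlation over tested genes was 0.983 within 34 h, 0.980 within 50 h and between 0.959 and 0.966 across the 2 time points. The number of reads behind a value is not known from TPM, and no counting interval was computed. Since whole cultures were measured, fewer cells of a type and less RNA per cell cannot be told apart.

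Of the 14908 genes, 933 were called (6.26%), 525 of them raised (3.52%) and 408 lowered (2.74%). Counts of list members below are to be read beside these shares. In all 933 the 2 libraries at 50 h lay on the same side of both 34 h libraries, as they did in 48.4% of the tested genes, and the difference had the same sign within each replicate number. The median difference was 1.06 among raised genes, -1.04 among lowered genes and 0.045 over all tested genes. A difference of at least 2 was reached by 71 raised and 24 lowered genes, and of at least 3 by 24 raised and 4 lowered genes. On the raised side 77 genes had a mean below 1 TPM at 34 h, and 12 were listed at 0 in both 34 h libraries. Of the lowered genes, 46 had a mean below 1 TPM at 50 h. With no 34 h replicate 1 the calls came to 450, with no 34 h replicate 2 to 398, with no 50 h replicate 1 to 475, and with the 34 h and 50 h libraries fitted alone to 431.

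**Figure D1:**
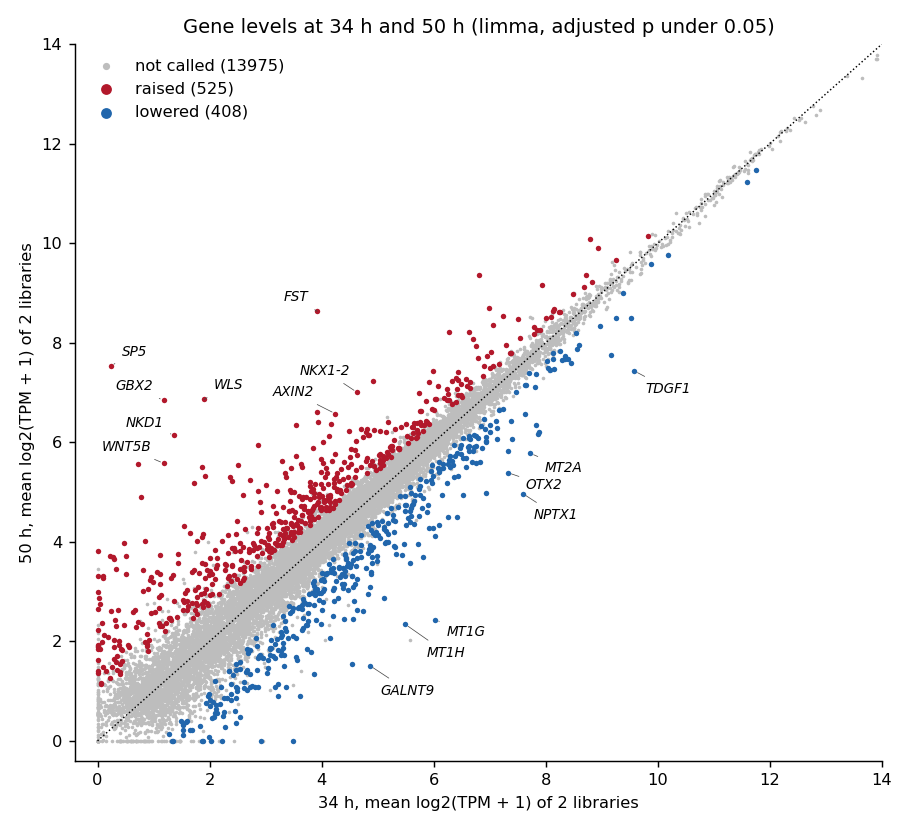
Mean log2(TPM + 1) of the 2 libraries at 34 h (x axis) against the 2 libraries at 50 h (y axis) for all 14908 tested genes, 1 point per gene, with the 525 raised and 408 lowered genes coloured and the dotted line marking equal levels. SP5, GBX2 and WLS lie farthest above the line, and MT1G, GALNT9 and MT1H are among the genes farthest below it.

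A called gene described below kept its call under each of up to 17 other settings (another pseudocount, filter, scaling or variance model, the replicate block, or 1 library left out, but not the test against a minimum change), unless its sentence says where the call was lost.

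Most WNT feedback and target genes rose. Of 16 listed genes 14 were tested, 10 were raised and none was lowered, with a median of 2.05 beside 0.045 for all genes. Their summed level was 140.3 and 115 TPM at 34 h against 906 and 693 TPM at 50 h, so both 50 h libraries stood well above both 34 h libraries. SP5, a transcription factor gene switched on by beta-catenin, lies in GENCODE 29 (GRCh38) at chromosome 2, 170715351 to 170718078, plus strand. It had 0.255 and 0.106 TPM at 34 h against 226 and 149 TPM at 50 h, close to 0 in both earlier libraries and high in both later ones. Its difference of 7.29 ± 0.20 (SE) was the largest of all tested genes in the positive direction (limma adjusted p = 1.28e-06).

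The promoters of SP5, IRX1 and FGF18 are shown as 3 of the 6 raised genes that hold the letters CTTTGAT, a form of the TCF/LEF site. The window runs from 250 bases before to 50 after the RefSeq start (GRCh38.p14, RefSeq). These 3 had the largest rises of the 6 and were chosen with the values known. The other raised holders and the 4 lowered holders are not shown. Capitals mark CTTTGAT or, on the other strand, ATCAAAG. IRX1 and FGF18 are described further below.
SP5 (chr2:170715087-170715386, plus strand): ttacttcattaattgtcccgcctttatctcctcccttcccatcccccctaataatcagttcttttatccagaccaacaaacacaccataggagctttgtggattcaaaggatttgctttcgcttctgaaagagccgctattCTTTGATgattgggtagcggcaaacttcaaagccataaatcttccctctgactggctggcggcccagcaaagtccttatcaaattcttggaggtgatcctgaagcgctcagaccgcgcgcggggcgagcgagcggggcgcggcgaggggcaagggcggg
IRX1 (chr5:3595582-3595881, plus strand): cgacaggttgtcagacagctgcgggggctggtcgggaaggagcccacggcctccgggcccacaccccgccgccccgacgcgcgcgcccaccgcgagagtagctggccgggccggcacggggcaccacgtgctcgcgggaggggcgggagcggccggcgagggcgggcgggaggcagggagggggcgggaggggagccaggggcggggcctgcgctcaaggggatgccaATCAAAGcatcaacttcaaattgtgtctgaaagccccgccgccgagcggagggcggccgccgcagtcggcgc
FGF18 (chr5:171419397-171419696, plus strand): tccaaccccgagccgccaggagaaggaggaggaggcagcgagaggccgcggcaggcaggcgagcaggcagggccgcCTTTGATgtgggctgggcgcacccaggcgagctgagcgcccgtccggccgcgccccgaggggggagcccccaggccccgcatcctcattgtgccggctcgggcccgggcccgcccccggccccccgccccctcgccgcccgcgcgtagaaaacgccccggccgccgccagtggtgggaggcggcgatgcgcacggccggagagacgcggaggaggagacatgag
The match begins 109 bases before the start in SP5, 22 before it in IRX1, where it is on the opposite strand, and 174 before it in FGF18. Searched on both strands, CTTTGAT was in 1.33% of the 10750 tested genes' promoters in the table, in 6 of 409 raised genes (1.47%) and in 4 of 286 lowered genes (1.40%). Of the 55 promoters of genes raised by 2 or more, 2 held it (3.64%). CTTTGAT contains the shorter CTTTGA, which was in 8.49% of the tested and 8.56% of the raised genes' promoters, and in 16.4% of those of genes raised by 2 or more. Of the 10 raised WNT feedback and target genes, 6 had a promoter in the table, and SP5 alone of those 6 held CTTTGAT.

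The other feedback genes rose from different starting levels. AXIN2, the scaffold of the destruction complex and a standard readout of the pathway, had 20.6 and 15.7 TPM at 34 h against 98.5 and 90.01 TPM at 50 h. It was already well expressed before WNT3A, and its difference was 2.33 ± 0.15 (SE), limma adjusted p = 0.000111. NKD1, which binds Dishevelled and restrains the signal, had 0.859 and 2.59 TPM at 34 h against 82.9 and 58.05 TPM at 50 h, a difference of 4.77 ± 0.33 (SE) (limma adjusted p = 0.000160). RNF43, a ubiquitin ligase that takes Frizzled off the cell surface, had 0.402 and 0.382 TPM at 34 h against 16.7 and 13.1 TPM at 50 h. Both 50 h libraries were far above both 34 h libraries in each case, and RNF43 differed by 3.50 ± 0.17 (SE) (limma adjusted p = 3.79e-05). ZNRF3, the sister ligase of RNF43, had 8.26 and 6.13 TPM at 34 h against 16.1 and 11.4 TPM at 50 h, limma adjusted p = 0.0467. That call was lost without either 34 h library, either 42 h library, 50 h replicate 1 or either 72 h library and in 5 other settings (limma adjusted p = 0.0512 to 0.250). APCDD1, a membrane inhibitor of WNT, had 1.75 and 3.002 TPM at 34 h against 36.2 and 34.2 TPM at 50 h (limma adjusted p = 0.000280). TNFRSF19, a receptor of the TNF family, had 0.758 and 0.983 TPM at 34 h against 7.14 and 7.48 TPM at 50 h (limma adjusted p = 0.000212). CCND1, which encodes cyclin D1, was the most abundant of the raised targets at 88.8 and 65.5 TPM at 34 h against 341 and 257 TPM at 50 h, and it rose by 1.94 ± 0.18 (SE) (limma adjusted p = 0.000574). NOTUM and DKK1, a WNT-inactivating enzyme and a secreted LRP6 blocker, stayed low. NOTUM was listed at 0 in both 34 h libraries and had 1.29 and 0.785 TPM at 50 h (limma adjusted p = 0.103, and 0.0246 with a pseudocount of 0.1), while DKK1 had 0.552 and 0.367 TPM at 34 h against 1.66 and 1.44 TPM at 50 h (limma adjusted p = 0.181).

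Among the factors that carry the signal to DNA the members moved in opposite directions. Of 9 TCF/LEF and TLE genes 3 were raised and 3 lowered, with a median of -0.15, but none lowered without 34 h replicate 1 or 50 h replicate 2. LEF1 had 7.77 and 9.94 TPM at 34 h against 49.7 and 46.95 TPM at 50 h, a difference of 2.33 ± 0.15 (SE) (limma adjusted p = 0.000127). TCF7 had 5.01 and 4.26 TPM at 34 h against 22.2 and 18.7 TPM at 50 h, a difference of 1.93 ± 0.22 (SE) (limma adjusted p = 0.00157). LEF1 and TCF7 are themselves on the target list, and for both the 2 time points were far apart. TCF7L1, best known as the repressing member of the family, went the other way, from 96.8 and 81.1 TPM to 57.1 and 50.04 TPM (-0.72 ± 0.13 (SE), limma adjusted p = 0.0151). Its call was lost without 34 h replicate 1 or 50 h replicate 2 and with the 2 time points fitted alone (limma adjusted p = 0.0741 to 0.104). TCF7L2 fell from 78.6 and 73.9 TPM to 52.8 and 44.96 TPM (limma adjusted p = 0.0123), a call lost without either 34 h library or 50 h replicate 2 and with the 2 time points fitted alone (limma adjusted p = 0.0564 to 0.0878). At 34 h TCF7L1 and TCF7L2 were far above LEF1 in each library, and at 50 h the 3 genes lay together, between 44.96 and 57.1 TPM. CTNNB1, the gene of beta-catenin itself, had 386 and 346 TPM at 34 h against 365 and 289 TPM at 50 h and was not called.

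WLS and several WNT ligands rose. WLS, the carrier that brings WNT proteins to the cell surface, lies at chromosome 1, 68098473 to 68233120, minus strand in GENCODE 29. It had 3.41 and 2.17 TPM at 34 h against 130.4 and 102 TPM at 50 h, a low gene in both earlier libraries and an abundant one in both later libraries (4.96 ± 0.21 (SE), limma adjusted p = 2.86e-05). Of 19 listed ligands 10 were tested, of which 5 were raised and 2 lowered (median 0.88), but 3 raised without either 34 h library or 50 h replicate 1 and 1 lowered without 34 h replicate 1 or either 50 h library. WNT5B, a ligand of caudal tissue that mostly signals without beta-catenin, had 1.69 and 0.918 TPM at 34 h against 49.6 and 43.9 TPM at 50 h, a difference of 4.39 ± 0.21 (SE) (limma adjusted p = 3.79e-05). WNT10B had 1.74 and 1.68 TPM at 34 h against 14.1 and 11.2 TPM at 50 h (2.32 ± 0.19 (SE), limma adjusted p = 0.000309). WNT8A had 0.402 and 0.454 TPM at 34 h against 11.2 and 7.63 TPM at 50 h (2.85 ± 0.23 (SE), limma adjusted p = 0.000305). WNT4 was the most abundant ligand at 34 h and fell, from 17.1 and 20.4 TPM to 5.54 and 7.22 TPM (-1.42 ± 0.20 (SE), limma adjusted p = 0.00426), so that WNT5B headed the ligands at 50 h. The remaining 3 calls, WNT2B and WNT3 raised and WNT7B lowered, were each lost in at least 1 setting. WNT2B (limma adjusted p = 0.0224) was lost without either 34 h library or 50 h replicate 1 and in 2 other settings (limma adjusted p = 0.0636 to 0.134). WNT3 (limma adjusted p = 0.0347) was lost without either 34 h library, either 50 h library or either 72 h library and with the 2 time points fitted alone (limma adjusted p = 0.0668 to 0.152). WNT7B (limma adjusted p = 0.0141) was lost without 34 h replicate 1 or either 50 h library and in 2 other settings (limma adjusted p = 0.0537 to 0.107).

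Single Frizzled receptors moved in opposite directions. Of 18 receptor and co-receptor genes 16 were tested, 5 were raised and 2 lowered, but 3 raised without 34 h replicate 2 and 1 lowered without either 34 h library or either 50 h library. The list summed to 727 and 667 TPM at 34 h against 852 and 805 TPM at 50 h. FZD1 had 0.729 and 0.775 TPM at 34 h against 10.2 and 9.54 TPM at 50 h (2.63 ± 0.18 (SE), limma adjusted p = 0.000147). FZD10 had 0.265 and 0.104 TPM at 34 h against 5.76 and 4.49 TPM at 50 h (2.37 ± 0.22 (SE), limma adjusted p = 0.000655). Both were near 0 before WNT3A and readily measured after it. FZD5 fell from 20.5 and 19.4 TPM to 8.01 and 7.65 TPM (-1.25 ± 0.14 (SE), limma adjusted p = 0.00150). ROR2, a receptor for WNT5A and WNT5B, had 5.33 and 4.09 TPM at 34 h against 56.2 and 37.1 TPM at 50 h, a difference of 3.04 ± 0.20 (SE) (limma adjusted p = 0.000119). The most abundant receptor was FZD7, with 406 and 368 TPM at 34 h against 387 and 378 TPM at 50 h, and it was not called. LRP5 and LRP6, the co-receptors, lay between 14.4 and 22.1 TPM in all 4 libraries and were not called either.

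Secreted WNT antagonists summed to 710.0 and 673 TPM at 34 h against 451 and 454 TPM at 50 h. The median of the 8 tested was 0.31, and -0.66 over the 5 with a mean of 5 TPM or more. SFRP1 and SFRP2, which bind WNT outside the cell, held most of that level. SFRP2 had 276 and 288 TPM at 34 h against 175 and 180.2 TPM at 50 h (-0.66 ± 0.08 (SE), limma adjusted p = 0.00170). SFRP1 had 402 and 350.2 TPM at 34 h against 234 and 234 TPM at 50 h (-0.68 ± 0.10 (SE), limma adjusted p = 0.00605), a call lost without 34 h replicate 1 (limma adjusted p = 0.0505). FRZB and WIF1, 2 other WNT-binding antagonists, rose from low levels: FRZB to 10.97 and 10.5 TPM from 3.35 and 4.37 TPM (limma adjusted p = 0.00297) and WIF1 to 8.19 and 11.6 TPM from 2.49 and 3.26 TPM (limma adjusted p = 0.00394). Thus 2 of the 8 tested antagonists were raised and 2 were lowered, but 1 lowered without 34 h replicate 1.

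**Figure D2:**
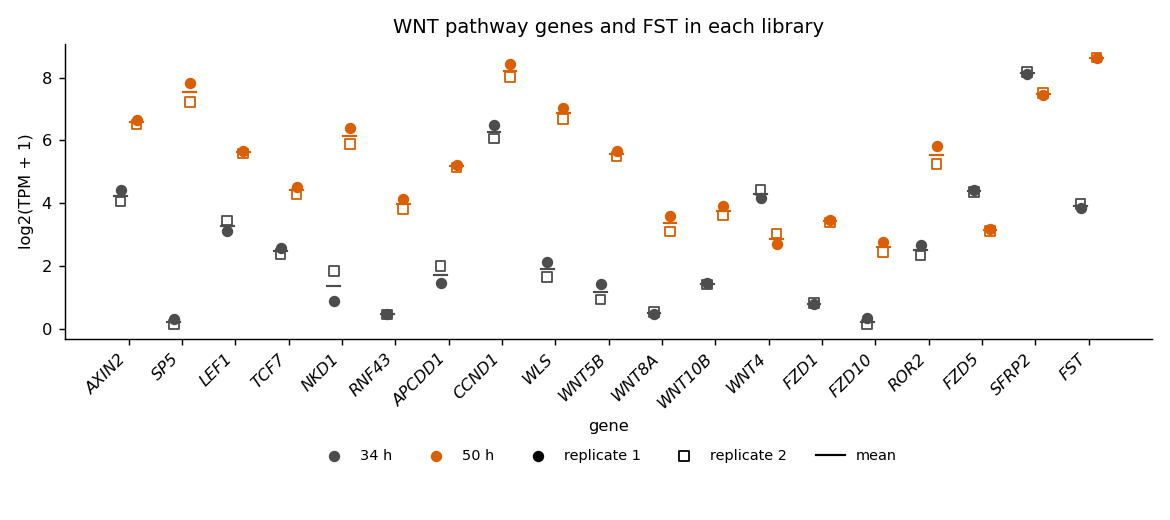
log2(TPM + 1) (y axis) of 18 WNT pathway genes and FST (x axis) in each of the 2 libraries at 34 h (dark) and at 50 h (orange); circles are replicate 1, squares replicate 2 and short lines the mean. SP5, WLS, NKD1, FST and WNT5B show the widest gaps, while WNT4, FZD5 and SFRP2 are lower at 50 h.

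Beyond the WNT pathway, 1 secreted antagonist had a rise above that of most WNT targets. FST encodes follistatin, which binds activin and some BMP proteins, and lies at chromosome 5, 53480409 to 53487134, plus strand in GENCODE 29. It had 13.4 and 14.8 TPM at 34 h against 391 and 399 TPM at 50 h, replicates that lay very close together and far from the other time point (4.71 ± 0.08 (SE), limma adjusted p = 1.25e-07, the lowest adjusted p of the 14908 genes). No other of the 7 tested BMP and activin antagonists was called, and the list summed to 238 and 217 TPM at 34 h against 621 and 626 TPM at 50 h. FSTL1, a distant relative of FST, had 192 and 171 TPM at 34 h against 192 and 190.2 TPM at 50 h. In the NODAL pathway, TDGF1, the co-receptor for NODAL and a marker of pluripotent cells, had 743 and 785 TPM at 34 h against 156 and 189 TPM at 50 h (-2.15 ± 0.24 (SE), limma adjusted p = 0.00150). The list summed to 951 and 979.9 TPM at 34 h against 435 and 424 TPM at 50 h, a smaller fall than that of TDGF1 alone in each replicate. Of 14 tested genes 2 were raised and 1 lowered (median 0.09), but none raised without 34 h replicate 2 or 50 h replicate 1 and 1 raised without 34 h replicate 1 or 50 h replicate 2. SMAD2 and SMAD3, the signal carriers of the pathway, were called raised. SMAD3 had 15.3 and 8.98 TPM at 34 h against 34.7 and 23.9 TPM at 50 h (limma adjusted p = 0.0221), a call lost without 34 h replicate 2 or 50 h replicate 1 and in 2 other settings (limma adjusted p = 0.0697 to 0.124). SMAD2 had 49.7 and 52.5 TPM at 34 h against 72.9 and 76.1 TPM at 50 h (limma adjusted p = 0.0224), a call lost without either 34 h library or either 50 h library and in 2 other settings (limma adjusted p = 0.0554 to 0.125).

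Among BMP target genes, ID2, an inhibitor of helix-loop-helix factors, had 24.3 and 29.3 TPM at 34 h against 73.7 and 71.95 TPM at 50 h (1.41 ± 0.11 (SE), limma adjusted p = 0.000309). MSX1, a homeobox gene of the dorsal neural tube and its border, was listed at 0 in both 34 h libraries and had 3.74 and 3.61 TPM at 50 h (limma adjusted p = 0.000735). ID3 had 236 and 195 TPM at 34 h against 412 and 313 TPM at 50 h, a difference of 0.74 that missed the threshold (limma adjusted p = 0.0503) and passed it in 4 other settings (down to 0.0337). ID4, a related inhibitor, had 2.29 and 2.71 TPM at 34 h against 0.619 and 0.689 TPM at 50 h, a difference of -1.08 that missed it as well (limma adjusted p = 0.0503) and passed in 4 other settings (down to 0.0180). In all, 3 of the 15 tested BMP ligand and target genes were raised and none was lowered.

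Among FGF genes, FGF18, whose promoter is printed above, had 0.664 and 0.434 TPM at 34 h against 4.95 and 5.12 TPM at 50 h (1.97 ± 0.23 (SE), limma adjusted p = 0.00216). Of 17 tested FGF ligand and receptor genes 3 were raised and none was lowered, but 1 raised without 50 h replicate 1. FGFR1 was the most abundant of the list at 614 and 589 TPM at 34 h against 750.0 and 662 TPM at 50 h and was not called. FGF2, the ligand that stem cell media supply, had 67.7 and 45.8 TPM at 34 h against 37.9 and 26.01 TPM at 50 h; it was not called (limma adjusted p = 0.129), though with the replicate block it passed (0.0295). Of 16 ERK feedback and target genes none was raised and 3 were lowered (median -0.20). SPRY1, a feedback inhibitor of receptor tyrosine kinases, fell from 14.6 and 15.9 TPM to 5.26 and 6.67 TPM (-1.23 ± 0.16 (SE), limma adjusted p = 0.00380). PHLDA1 fell from 54.95 and 50.2 TPM to 22.6 and 21.4 TPM (-1.22 ± 0.12 (SE), limma adjusted p = 0.000834). DUSP6 and ETV4 are often read as ERK reporters, and neither was called. DUSP6 had 17.1 and 18.3 TPM at 34 h against 15.1 and 21.2 TPM at 50 h. ETV4 had 66.1 and 61.9 TPM at 34 h against 61.4 and 44.8 TPM at 50 h.

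Retinoic acid genes moved in both directions, with 4 of 16 tested genes raised and 3 lowered, but 1 raised without 34 h replicate 2 and 1 lowered without 34 h replicate 2. DHRS3, which turns retinaldehyde back to retinol, fell from 39.04 and 32.00 TPM to 16.4 and 13.6 TPM (-1.19 ± 0.16 (SE), limma adjusted p = 0.00435). CYP26A1, the enzyme that degrades retinoic acid, had 21.7 and 23.5 TPM at 34 h against 2.92 and 6.67 TPM at 50 h (-2.10 ± 0.31 (SE), limma adjusted p = 0.00582), a call lost without 34 h replicate 2 (limma adjusted p = 0.0520). CRABP1 and CRABP2, the cellular retinoic acid binding proteins, went opposite ways. CRABP2 had 284 and 209 TPM at 34 h against 677 and 482 TPM at 50 h (limma adjusted p = 0.0119), a call lost without 34 h replicate 2 or 50 h replicate 1 and in 2 other settings (limma adjusted p = 0.0519 to 0.0901). CRABP1 had 279 and 277 TPM at 34 h against 197 and 209 TPM at 50 h (limma adjusted p = 0.0303), a call lost without either 34 h library, either 42 h library or either 50 h library and in 3 other settings (limma adjusted p = 0.0522 to 0.145).

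Notch and Hedgehog genes gave 1 call each, of 15 and 11 tested, beside 6.26% called over all tested genes. LFNG, which modifies Notch receptors with sugar, fell from 44.9 and 41.3 TPM to 15.8 and 13.3 TPM (-1.51 ± 0.13 (SE), limma adjusted p = 0.000478), the only call among 15 tested Notch genes. PTCH1, the Hedgehog receptor and a target of the pathway, had 19.3 and 13.8 TPM at 34 h against 42.3 and 28.6 TPM at 50 h (limma adjusted p = 0.0217), the only call among 11 tested Hedgehog genes. That call was lost without 34 h replicate 2 or 50 h replicate 1 and in 2 other settings (limma adjusted p = 0.0644 to 0.138). GLI1, the other standard Hedgehog target, had 23.5 and 12.7 TPM at 34 h against 17.6 and 14.2 TPM at 50 h and was not called.

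**Figure D3:**
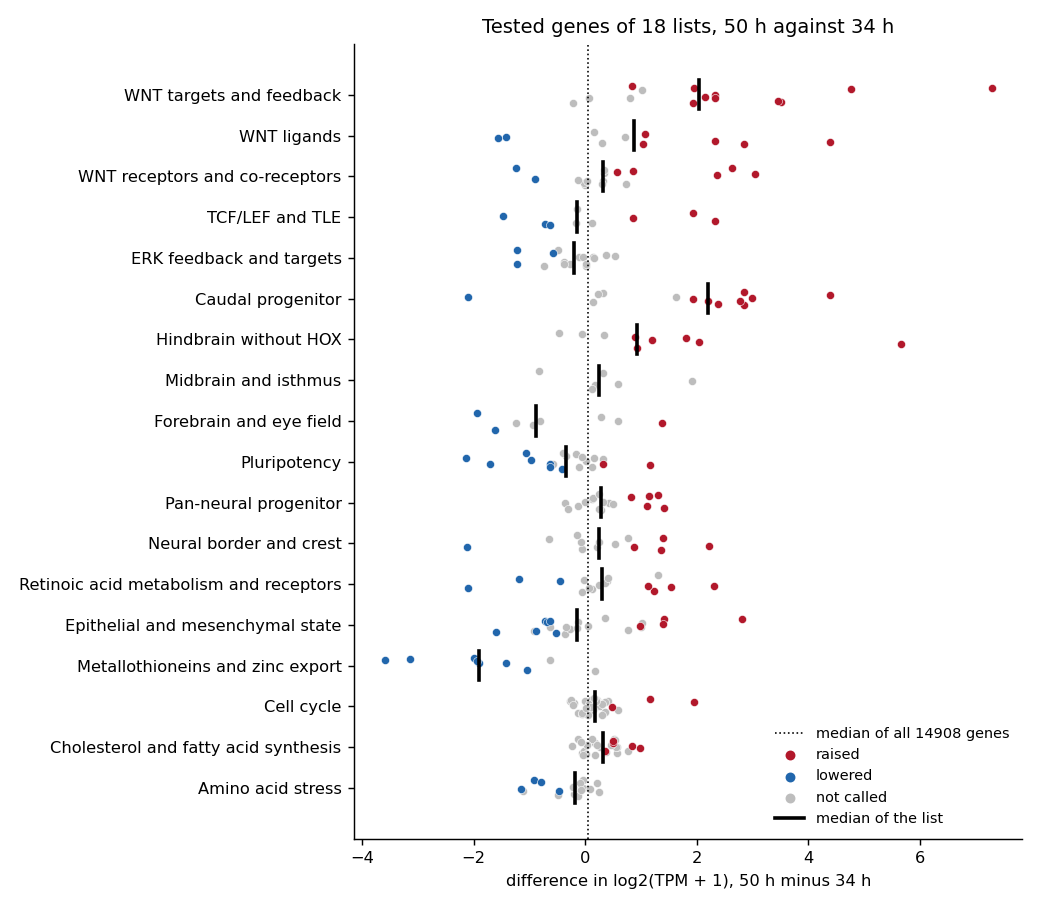
Difference in log2(TPM + 1) between 50 h and 34 h (x axis) for the tested genes of 18 lists (y axis), 1 point per gene, coloured by call, with a bar at each list's median and a dotted line at the median of all 14908 genes. The WNT target and caudal progenitor lists have medians of 2.05 and 2.20, and the metallothionein list has -1.90.

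Among genes that mark position along the neural axis, OTX2 fell, and several genes of the hindbrain and of caudal progenitors rose. OTX2, the homeobox gene of forebrain and midbrain, had 168 and 151 TPM at 34 h against 33.04 and 50.5 TPM at 50 h, a difference of -1.94 ± 0.20 (SE) (limma adjusted p = 0.00110). Both 50 h libraries were well below both 34 h libraries. Of 8 tested forebrain and eye field genes 2 were lowered and 1 raised, with a median of -0.88, but none raised without 34 h replicate 2 or either 50 h library and 1 lowered without 34 h replicate 1 or either 72 h library. FEZF1 and LHX5, 2 forebrain factors, did not pass the test. FEZF1 had 53.3 and 47.6 TPM at 34 h against 15.9 and 26.9 TPM at 50 h (limma adjusted p = 0.0599, and 0.0189 with the replicate block). LHX5 had 33.7 and 21.7 TPM at 34 h against 16.8 and 13.2 TPM at 50 h (limma adjusted p = 0.0566, 0.0377 with the replicate block, and between 0.0254 and 0.214 over the other settings). PAX6 and SIX3, genes of forebrain and eye tissue, stayed below 1 TPM in all 4 libraries.

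GBX2, the gene of the anterior hindbrain that opposes OTX2 at the midbrain boundary, had 1.31 and 1.21 TPM at 34 h against 132 and 97.8 TPM at 50 h and lies at chromosome 2, 236165236 to 236168369, minus strand in GENCODE 29. Its difference of 5.66 ± 0.16 (SE) was the second largest rise (limma adjusted p = 1.28e-06). At 34 h OTX2 was far above GBX2 in each library, and at 50 h GBX2 was above OTX2 in each library. Of 9 tested hindbrain genes outside the HOX clusters 6 were raised and none was lowered (median 0.92), but 3 raised without 34 h replicate 2 or either 50 h library. IRX1, an Iroquois homeobox gene, had 15.1 and 11.8 TPM at 34 h against 65.5 and 51.9 TPM at 50 h (2.04 ± 0.17 (SE), limma adjusted p = 0.000328). PHOX2A, a gene of hindbrain motor and noradrenergic neurons, had 1.01 and 1.37 TPM at 34 h against 7.98 and 5.43 TPM at 50 h (1.80 ± 0.20 (SE), limma adjusted p = 0.00152). None of the 6 tested midbrain and isthmus genes was called, but 1 raised without either 42 h library. EN1 and EN2, the engrailed genes of the isthmus, stayed below 1 TPM, and PAX2 had 0 and 0.0664 TPM at 34 h against 4.28 and 1.84 TPM at 50 h (limma adjusted p = 0.0637, 0.0496 with the replicate block, and between 0.0114 and 0.259 over the other settings).

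HOX genes give position from the hindbrain tailwards. HOXA3 was listed at 0 in both 34 h libraries and had 3.01 and 1.39 TPM at 50 h (limma adjusted p = 0.0219), a call lost without either 34 h library or 50 h replicate 1 and with the 2 time points fitted alone (limma adjusted p = 0.0763 to 0.115). The strand setting of the quantification is not given in the sources used here, so reads from antisense transcripts near HOXA3 could not be set apart. Of 9 tested genes for partners of HOX proteins 3 were raised and 1 lowered, but none lowered without either 34 h library or 50 h replicate 1. MEIS2 had 2.11 and 3.25 TPM at 34 h against 47.5 and 41.1 TPM at 50 h (3.63 ± 0.18 (SE), limma adjusted p = 4.24e-05) and PKNOX2 11.3 and 8.50 TPM at 34 h against 29.6 and 24.9 TPM at 50 h (1.38 ± 0.16 (SE), limma adjusted p = 0.00170). PKNOX1 was the lowered member, with 15.7 and 15.3 TPM at 34 h against 6.85 and 7.86 TPM at 50 h (-0.99 ± 0.15 (SE), limma adjusted p = 0.00687), a call lost without either 34 h library or 50 h replicate 1 (limma adjusted p = 0.0505 to 0.0536).

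Caudal progenitor genes, which mark the tail-end cells that feed the spinal cord and paraxial mesoderm, rose with 8 of 13 tested genes and fell with 1, CYP26A1. The list's median was 2.20 and its sum 62.7 and 66.8 TPM at 34 h against 268 and 235 TPM at 50 h. NKX1-2, a homeobox gene of these progenitors, was the most abundant member and had 22.4 and 25.3 TPM at 34 h against 133 and 122 TPM at 50 h (2.37 ± 0.19 (SE), limma adjusted p = 0.000341). SP8, a relative of SP5, had 1.75 and 2.12 TPM at 34 h against 21.7 and 16.6 TPM at 50 h (2.77 ± 0.17 (SE), limma adjusted p = 0.000103). TBXT, the brachyury gene, had 0.831 and 1.16 TPM at 34 h against 9.62 and 6.83 TPM at 50 h (2.20 ± 0.24 (SE), limma adjusted p = 0.00147). Both rose in each replicate but stayed low beside NKX1-2. EVX1 and CDX1 were listed at 0 in both 34 h libraries. At 50 h EVX1 had 7.88 and 6.06 TPM (limma adjusted p = 0.000212) and CDX1 3.07 and 2.59 TPM (limma adjusted p = 0.00241). CDX2, the other caudal homeobox gene measured here, had 0.0395 and 0 TPM at 34 h against 5.94 and 6.73 TPM at 50 h (limma adjusted p = 0.00329). All 8 raised members, which include WNT5B and WNT8A, kept their call in each of these settings. Against a minimum change of 1, CDX1 (0.239), CDX2 (0.0810) and TBXT (0.0818) did not pass.

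**Figure D4:**
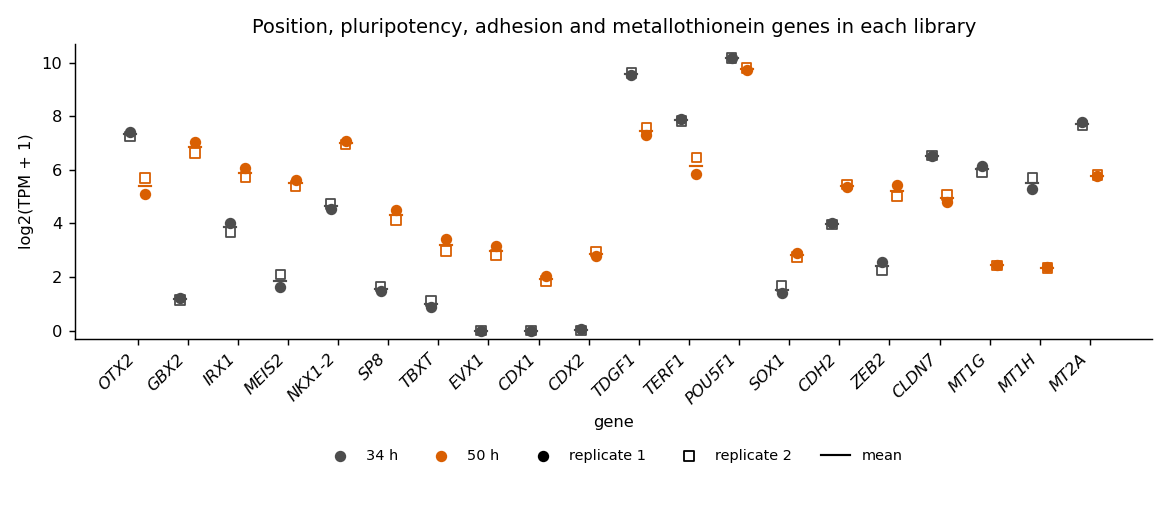
log2(TPM + 1) (y axis) of 20 genes (x axis) in each of the 2 libraries at 34 h (dark) and at 50 h (orange); circles are replicate 1, squares replicate 2 and short lines the mean. OTX2, TDGF1 and the metallothionein genes are lower at 50 h, and GBX2 and MEIS2 are higher.

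The pluripotency genes fell in part. Of 19 tested members 7 were lowered and 2 raised (median -0.35), but none raised without either 34 h library or 50 h replicate 1; 1 raised without either 42 h library, 50 h replicate 2 or either 72 h library; and 4 lowered without either 34 h library. The list summed to 4915 and 4805 TPM at 34 h against 3528 and 3712 TPM at 50 h. TERF1, a telomere-binding protein gene that is high in pluripotent cells, had 236 and 226 TPM at 34 h against 57.03 and 86.6 TPM at 50 h (-1.70 ± 0.21 (SE), limma adjusted p = 0.00238). With TDGF1 it was the only lowered member whose call held in each setting. POU5F1, the core factor OCT4, remained abundant at 1165 and 1152 TPM at 34 h against 842 and 892 TPM at 50 h, a difference of -0.42 ± 0.08 (SE) (limma adjusted p = 0.0197); that call was lost without either 34 h library or 50 h replicate 1 and in 3 other settings (limma adjusted p = 0.0523 to 0.111). DPPA4 had 372 and 393 TPM at 34 h against 227 and 265 TPM at 50 h (limma adjusted p = 0.00553), a call lost without 34 h replicate 2 and with the 2 time points fitted alone (limma adjusted p = 0.0548 to 0.0573). DNMT3B, the embryonic DNA methyltransferase, had 558 and 452 TPM at 34 h against 337 and 309.9 TPM at 50 h (limma adjusted p = 0.0128), a call lost without 34 h replicate 1 or 50 h replicate 2 and in 2 other settings (limma adjusted p = 0.0505 to 0.0856). SOX2, shared by pluripotent and neural cells, had 224 and 211 TPM at 34 h against 238 and 233 TPM at 50 h (limma adjusted p = 0.489), and SALL4 had 129 and 117 TPM at 34 h against 109 and 110.4 TPM at 50 h (limma adjusted p = 0.354). NANOG, a defining marker of the labelled cell type, was low at both times with 2.46 and 1.59 TPM at 34 h against 1.92 and 2.77 TPM at 50 h.

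Neural progenitor genes were raised in 5 of 17 cases and lowered in none (median 0.29), but 3 raised without either 34 h library. SOX1, the earliest specific marker of neural ectoderm, had 1.63 and 2.14 TPM at 34 h against 6.48 and 5.73 TPM at 50 h (1.30 ± 0.19 (SE), limma adjusted p = 0.00545). CDH2, which encodes N-cadherin, had 15.2 and 14.6 TPM at 34 h against 40.1 and 42.6 TPM at 50 h (1.42 ± 0.12 (SE), limma adjusted p = 0.000368). NCAM1, a neural adhesion molecule, had 14.8 and 12.3 TPM at 34 h against 32.2 and 28.6 TPM at 50 h (1.12 ± 0.13 (SE), limma adjusted p = 0.00192). NES, which encodes nestin, had 137 and 132 TPM at 34 h against 207 and 159 TPM at 50 h (limma adjusted p = 0.115; leaving out 50 h replicate 2 gave 0.0400). Of the 9 tested genes of neuronal differentiation 2 were raised, but 1 raised without either 34 h library, either 50 h library or either 72 h library. STMN2, a growth cone protein, had 0.320 and 0.256 TPM at 34 h against 5.67 and 4.81 TPM at 50 h (2.27 ± 0.20 (SE), limma adjusted p = 0.000420). DCX had 3.15 and 2.33 TPM at 34 h against 5.61 and 6.48 TPM at 50 h (limma adjusted p = 0.0395). The DCX call was lost without either 34 h library, either 50 h library or either 72 h library, with the replicate block (0.0561) and in 2 other settings (limma adjusted p = 0.0561 to 0.218). TUBB3, the neuronal tubulin, had 261 and 209.6 TPM at 34 h against 299.9 and 235 TPM at 50 h and was not called.

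Markers of other cell types that such cultures could hold were low in sum. The 14 mesoderm genes summed to 17.9 and 18.9 TPM at 34 h against 24.2 and 22.3 TPM at 50 h, with 2 raised (TBXT and MIXL1) and 1 lowered (PDGFRA) of 6 tested, and MSGN1 at 0 in all 4 libraries. The 11 endoderm genes summed to 15.4 and 17.7 TPM at 34 h against 9.68 and 10.4 TPM at 50 h, with FOXA2 lowered among 4 tested and SOX17 at 0 in all 4 libraries. The 14 surface ectoderm and amnion genes summed to 13.8 and 14.8 TPM at 34 h against 10.7 and 12.1 TPM at 50 h. Of 3 tested, CDX2 was raised and GRHL2 lowered, but none lowered without either 34 h library or 50 h replicate 1. The 18 neural border and crest genes summed to 57.4 and 44.4 TPM at 34 h against 66.99 and 64.4 TPM at 50 h. Of 13 tested, 4 were raised (MSX1, MSX2, SOX9 and SNAI2) and 1 lowered (FOXD3), but 2 raised without either 34 h library or 50 h replicate 1. SOX9 rose from 14.97 and 13.5 TPM to 26.3 and 27.7 TPM (limma adjusted p = 0.00365). FOXD3, which pluripotent cells also express, fell from 4.65 and 4.48 TPM to 0.246 and 0.328 TPM (limma adjusted p = 0.00152). SOX10, the defining crest gene, lay between 2.00 and 3.13 TPM. The part of such cells in the changes above was not tested. Of these calls MIXL1 (limma adjusted p = 0.0232) was lost without either 34 h library or either 50 h library and with the 2 time points fitted alone (limma adjusted p = 0.0646 to 0.116). PDGFRA (limma adjusted p = 0.0313) was lost without either 34 h library, either 42 h library, either 50 h library or either 72 h library and with the 2 time points fitted alone (limma adjusted p = 0.0521 to 0.155). FOXA2 (limma adjusted p = 0.0125) was lost without either 34 h library or 50 h replicate 1 (limma adjusted p = 0.0598 to 0.105). GRHL2 (limma adjusted p = 0.00971) was lost without either 34 h library or 50 h replicate 1 (limma adjusted p = 0.0660 to 0.0721). MSX2 (limma adjusted p = 0.0260) was lost without either 34 h library or 50 h replicate 1 and in 2 other settings (limma adjusted p = 0.0505 to 0.140). SNAI2 (limma adjusted p = 0.0121) was lost without either 34 h library or either 50 h library (limma adjusted p = 0.0547 to 0.0716).

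Of 23 tested epithelial and mesenchymal genes 4 were raised and 6 lowered (median -0.14), but 2 raised without 34 h replicate 1 or 50 h replicate 1; 2 lowered without either 34 h library; and 3 lowered without 50 h replicate 1. ZEB2, a repressor of epithelial genes that is also active in neural development, had 4.92 and 3.74 TPM at 34 h against 41.8 and 31.1 TPM at 50 h (2.81 ± 0.20 (SE), limma adjusted p = 0.000188). CLDN7, a tight junction claudin, had 90.3 and 92.1 TPM at 34 h against 26.9 and 32.4 TPM at 50 h (-1.59 ± 0.13 (SE), limma adjusted p = 0.000347). ESRP1, a splicing factor of epithelia, had 93.5 and 95.2 TPM at 34 h against 49.4 and 51.9 TPM at 50 h (-0.88 ± 0.10 (SE), limma adjusted p = 0.00195). For all 3 the libraries of the 2 time points did not overlap, as in all 933 called genes and 48.4% of tested genes. CDH1, which encodes E-cadherin, had 150.0 and 137 TPM at 34 h against 95.1 and 105 TPM at 50 h (-0.52 ± 0.11 (SE), limma adjusted p = 0.0306), a call lost without either 34 h library, either 50 h library or either 72 h library and in 3 other settings (limma adjusted p = 0.0512 to 0.166). CLDN6, the most abundant claudin, had 967 and 919 TPM at 34 h against 1056 and 911 TPM at 50 h and was not called. Of 19 tested ephrin and ephrin receptor genes 6 were raised and 2 lowered, but 2 raised without 34 h replicate 2 or 50 h replicate 1; 3 raised without 34 h replicate 1; none lowered without either 34 h library; and 1 lowered without either 50 h library. EFNB2 had 16.9 and 17.4 TPM at 34 h against 49.1 and 47.1 TPM at 50 h (1.43 ± 0.12 (SE), limma adjusted p = 0.000402). EFNB1 had 13.1 and 12.4 TPM at 34 h against 40.8 and 27.6 TPM at 50 h (1.33 ± 0.18 (SE), limma adjusted p = 0.00389). Both encode membrane-bound ephrins that keep neighbouring cell groups apart.

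Metallothioneins, small cysteine-rich proteins that bind zinc and copper, mostly fell. Of 9 tested genes of the list 7 were lowered and none raised (median -1.90), but 4 lowered without 34 h replicate 2. The list summed to 481 and 451 TPM at 34 h against 127 and 113 TPM at 50 h. MT2A, the most abundant, had 219.8 and 201 TPM at 34 h against 52.9 and 54.8 TPM at 50 h (-1.95 ± 0.11 (SE), limma adjusted p = 6.21e-05). MT1G had 70.4 and 58.8 TPM at 34 h against 4.43 and 4.36 TPM at 50 h, a difference of -3.60 ± 0.14 (SE) (limma adjusted p = 1.74e-05). That was the largest fall of all tested genes on the log2(TPM + 1) scale. With a pseudocount of 0.1 AL139082.2 (-6.69) and AC139494.5 (-6.05), both listed at 0 at 50 h, fell by more. MT1H had 37.8 and 51.1 TPM at 34 h against 4.14 and 4.01 TPM at 50 h (-3.15 ± 0.20 (SE), limma adjusted p = 0.000106). MT1F had 51.3 and 42.5 TPM at 34 h against 12.8 and 9.32 TPM at 50 h (-1.997 ± 0.17 (SE), limma adjusted p = 0.000421). Both 50 h libraries were below both 34 h libraries for all 4 genes. All 933 called genes and 48.4% of tested genes were separated in one direction or the other. The other 3 calls were lost in some settings. MT1X (limma adjusted p = 0.0296) was lost without either 34 h library or 50 h replicate 2 and in 3 other settings (limma adjusted p = 0.0628 to 0.148). MT1E (limma adjusted p = 0.00860) was lost without 34 h replicate 2 or 50 h replicate 1 (limma adjusted p = 0.0519 to 0.0787). MT1M (limma adjusted p = 0.0498) was lost without either 34 h library or either 50 h library, with the replicate block (0.0685) and in 5 other settings (limma adjusted p = 0.0520 to 0.245). SLC30A1, a zinc exporter set by the same metal-sensing factor, had 7.68 and 7.64 TPM at 34 h against 4.75 and 4.44 TPM at 50 h, which missed the threshold (limma adjusted p = 0.0580, and 0.0360 to 0.222 over the other settings). The genes of the MT1 group are near-identical copies of each other, so reads may have been divided among them and the split between single members is uncertain.

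The promoters of MT2A and MT1H are shown because both are dense in the core of the metal response element, the site of the zinc-sensing factor MTF1. Capitals mark TGCACNC or TGCGCNC on either strand (GRCh38.p14, RefSeq), a motif chosen after the values were seen.
MT2A (chr16:56608334-56608633, plus strand): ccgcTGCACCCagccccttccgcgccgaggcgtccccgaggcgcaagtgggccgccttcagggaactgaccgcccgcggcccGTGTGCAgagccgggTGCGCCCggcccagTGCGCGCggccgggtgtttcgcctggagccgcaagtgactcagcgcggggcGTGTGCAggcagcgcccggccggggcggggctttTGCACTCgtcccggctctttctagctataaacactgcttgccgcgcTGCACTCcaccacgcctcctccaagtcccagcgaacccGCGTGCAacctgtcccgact
MT1H (chr16:56669564-56669863, plus strand): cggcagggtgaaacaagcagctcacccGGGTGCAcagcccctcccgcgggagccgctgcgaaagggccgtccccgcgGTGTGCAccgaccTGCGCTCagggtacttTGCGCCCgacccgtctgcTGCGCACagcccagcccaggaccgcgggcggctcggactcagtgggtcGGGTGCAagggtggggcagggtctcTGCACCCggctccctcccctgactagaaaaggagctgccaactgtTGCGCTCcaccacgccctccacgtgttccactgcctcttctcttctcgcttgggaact
Each of these 2 windows held 8 matches and that of MT1X held 4. MT1E, MT1F, MT1G and MT1M are not in the table. At least 4 matches were present in 0.593% of the 27305 promoters in the table, and at least 1 in 29.3%.

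Of 32 cell cycle genes 3 were raised and none was lowered (median 0.17), but 1 raised without 34 h replicate 1 or 50 h replicate 1. CCND1 is described above. CDKN1A, the cell cycle inhibitor p21, had 8.67 and 11.7 TPM at 34 h against 26.7 and 21.1 TPM at 50 h (limma adjusted p = 0.0200), a call lost without 34 h replicate 1 or 50 h replicate 1 and in 2 other settings (limma adjusted p = 0.0617 to 0.123). MKI67 had 40.9 and 40.00 TPM at 34 h against 57.5 and 56.3 TPM at 50 h (limma adjusted p = 0.0425), a call lost without either 34 h library, either 50 h library or either 72 h library, with the replicate block (0.0510) and in 6 other settings (limma adjusted p = 0.0510 to 0.197). MCM3, a replication factor, had 279.8 and 272 TPM at 34 h against 343 and 335 TPM at 50 h (limma adjusted p = 0.0545). AURKB, a mitotic kinase, had 171 and 185 TPM at 34 h against 235 and 218 TPM at 50 h (limma adjusted p = 0.0503, and 0.0475 at lowest over the other settings). Of 26 glycolysis and hypoxia genes 2 were raised and 2 lowered, but 1 raised without 34 h replicate 2 and 1 lowered without either 34 h library or 50 h replicate 1. SLC2A3, the glucose transporter GLUT3, had 118 and 134 TPM at 34 h against 398 and 434 TPM at 50 h (1.72 ± 0.11 (SE), limma adjusted p = 0.000111). PFKP, a phosphofructokinase, fell from 113 and 112 TPM to 49.6 and 45.3 TPM (-1.23 ± 0.10 (SE), limma adjusted p = 0.000281). SLC2A3 has a close copy in SLC2A14, with which reads could be shared. Of 26 cholesterol and fatty acid synthesis genes 5 were raised and none lowered (median 0.31), but none raised without 34 h replicate 2; 1 raised without 50 h replicate 1; 2 raised without 34 h replicate 1; and 3 raised without either 72 h library. Each of the 5 calls was lost in at least 4 settings.

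Of 18 amino acid stress genes 4 were lowered and none raised, but 2 lowered without either 34 h library or 50 h replicate 1. CHAC1, which breaks down glutathione, fell from 56.9 and 52.98 TPM to 29.7 and 27.3 TPM (-0.92 ± 0.13 (SE), limma adjusted p = 0.00435). DDIT4, an inhibitor of mTORC1, fell from 97.1 and 117 TPM to 47.96 and 46.4 TPM (-1.16 ± 0.13 (SE), limma adjusted p = 0.00172). ATF4, the factor at the head of that response, had 530.0 and 606 TPM at 34 h against 520.4 and 581 TPM at 50 h and was not called. Of 14 tested imprinted genes 5 were raised and 1 lowered, but 3 raised without any 1 of the 8 libraries and none lowered without any 1 of the 8 libraries. PLAGL1, a zinc finger factor, had 1.28 and 1.05 TPM at 34 h against 12.1 and 12.5 TPM at 50 h (2.62 ± 0.22 (SE), limma adjusted p = 0.000365). DLK1, a Notch-like membrane protein, had 3.08 and 1.66 TPM at 34 h against 8.44 and 11.2 TPM at 50 h (1.71 ± 0.23 (SE), limma adjusted p = 0.00414). MYCL was the only call among 12 genes of the MYC and MXD network, beside 6.26% called over all tested genes. MYCL had 15.3 and 11.7 TPM at 34 h against 34.5 and 29.97 TPM at 50 h (limma adjusted p = 0.00283). MYC, itself a known WNT target in gut epithelium, had 45.9 and 36.2 TPM at 34 h against 34.7 and 30.2 TPM at 50 h. None of the 13 mitochondrially encoded genes was called (median -0.19).

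Beyond the lists, the 12 highest rises included GAD1, TNFRSF11B and LIX1. GAD1, the enzyme that makes the transmitter GABA, had 1.49 and 0.0830 TPM at 34 h against 47.9 and 44.8 TPM at 50 h (4.85 ± 0.38 (SE), limma adjusted p = 0.000273). TNFRSF11B, which encodes the decoy receptor osteoprotegerin, had 0.329 and 1.202 TPM at 34 h against 27.3 and 30.6 TPM at 50 h (4.13 ± 0.25 (SE), limma adjusted p = 9.05e-05). LIX1 had 0.171 and 0.161 TPM at 34 h against 13.3 and 11.05 TPM at 50 h (3.49 ± 0.17 (SE), limma adjusted p = 4.00e-05). Each was below 2 TPM in both 34 h libraries and above 10 TPM in both 50 h libraries.

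The 12 highest falls included MT1G and MT1H, described above, and GALNT9, GADD45G, NPTX1, BICDL2 and IDO1. NPTX1, a secreted neuronal pentraxin, was the most abundant at 215 and 170.4 TPM at 34 h against 31.7 and 28.99 TPM at 50 h (-2.62 ± 0.21 (SE), limma adjusted p = 0.000280). GALNT9, which starts mucin-type sugar chains, had 36.5 and 21.5 TPM at 34 h against 1.97 and 1.73 TPM at 50 h (-3.35 ± 0.29 (SE), limma adjusted p = 0.000421). GADD45G, a stress and growth arrest gene, had 20.8 and 23.7 TPM at 34 h against 2.02 and 1.79 TPM at 50 h (-2.999 ± 0.25 (SE), limma adjusted p = 0.000387). IDO1, which breaks down tryptophan, had 30.1 and 37.5 TPM at 34 h against 5.10 and 7.86 TPM at 50 h (-2.24 ± 0.23 (SE), limma adjusted p = 0.000927). BICDL2 had 10.8 and 7.92 TPM at 34 h against 1.13 and 1.13 TPM at 50 h (-2.27 ± 0.22 (SE), limma adjusted p = 0.000735). EIF3CL is a near-identical copy of EIF3C: it had 10.9 and 11.7 TPM at 34 h against 0.230 and 1.86 TPM at 50 h (limma adjusted p = 0.00728), a call lost without either 34 h library (limma adjusted p = 0.0504 to 0.0614), while EIF3C had 696 and 731 TPM at 34 h against 641 and 591 TPM at 50 h and was not called. ECEL1P1 and ECEL1P2 are pseudogenes of ECEL1. ECEL1P1 had 7.76 and 9.004 TPM at 34 h against 0.956 and 0.807 TPM at 50 h (limma adjusted p = 0.000490). ECEL1P2 had 11.3 and 16.3 TPM at 34 h against 0.756 and 2.67 TPM at 50 h (limma adjusted p = 0.00480), a call lost without 34 h replicate 2 (limma adjusted p = 0.0501). ECEL1 itself had 7.91 and 5.72 TPM at 34 h against 5.91 and 6.12 TPM at 50 h and was not called. How reads were divided between EIF3CL, ECEL1P1 or ECEL1P2 and the gene each resembles is uncertain. AL139082.2 and AC139494.5, known by clone names, were listed at 0 in both 50 h libraries. At 34 h AL139082.2 had 10.03 and 10.4 TPM (limma adjusted p = 0.000215) and AC139494.5 6.29 and 6.79 TPM (limma adjusted p = 0.00739), the latter lost without either 34 h library (limma adjusted p = 0.0509 to 0.0621).

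The 50 h level was also tested directly against the 42 h level, 8 h after WNT3A was added. Of the 14908 genes 14 were called (0.0939%). That count was 8 without 42 h replicate 1, 7 without 50 h replicate 2, 3 without either 34 h library or either 72 h library, and 1 without 42 h replicate 2 or 50 h replicate 1. It was 7 with the replicate block and 0 by limma with the 2 time points fitted alone (1089 genes at an unadjusted p under 0.05). FST stood at 181 and 175 TPM at 42 h, between its 34 h and 50 h levels, and rose by 1.14 ± 0.08 (SE) from there to 50 h (limma adjusted p = 0.00542). That call was lost without 42 h replicate 2 (0.0670), without 50 h replicate 1 (0.0515) or with the 2 time points fitted alone (0.182). MT1G stood at 18.1 and 17.9 TPM at 42 h and fell further (-1.81 ± 0.14 (SE), limma adjusted p = 0.00542), a call lost in the same 3 settings (0.0670, 0.0515 and 0.214). MEIS2 stood at 18.7 and 14.7 TPM at 42 h (1.36 ± 0.18 (SE), limma adjusted p = 0.0511) and WLS at 50.8 and 38.6 TPM (1.36 ± 0.21 (SE), limma adjusted p = 0.0745). Neither passed, though both did when testing was limited to means of 5 TPM or more (0.0308 and 0.0477). GBX2 had 102 and 85.9 TPM at 42 h, a difference to 50 h of 0.28 ± 0.16 (SE) (limma adjusted p = 0.632). TDGF1 differed by -1.06 between 42 h and 50 h and was not called either (limma adjusted p = 0.193).

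**Figure D5:**
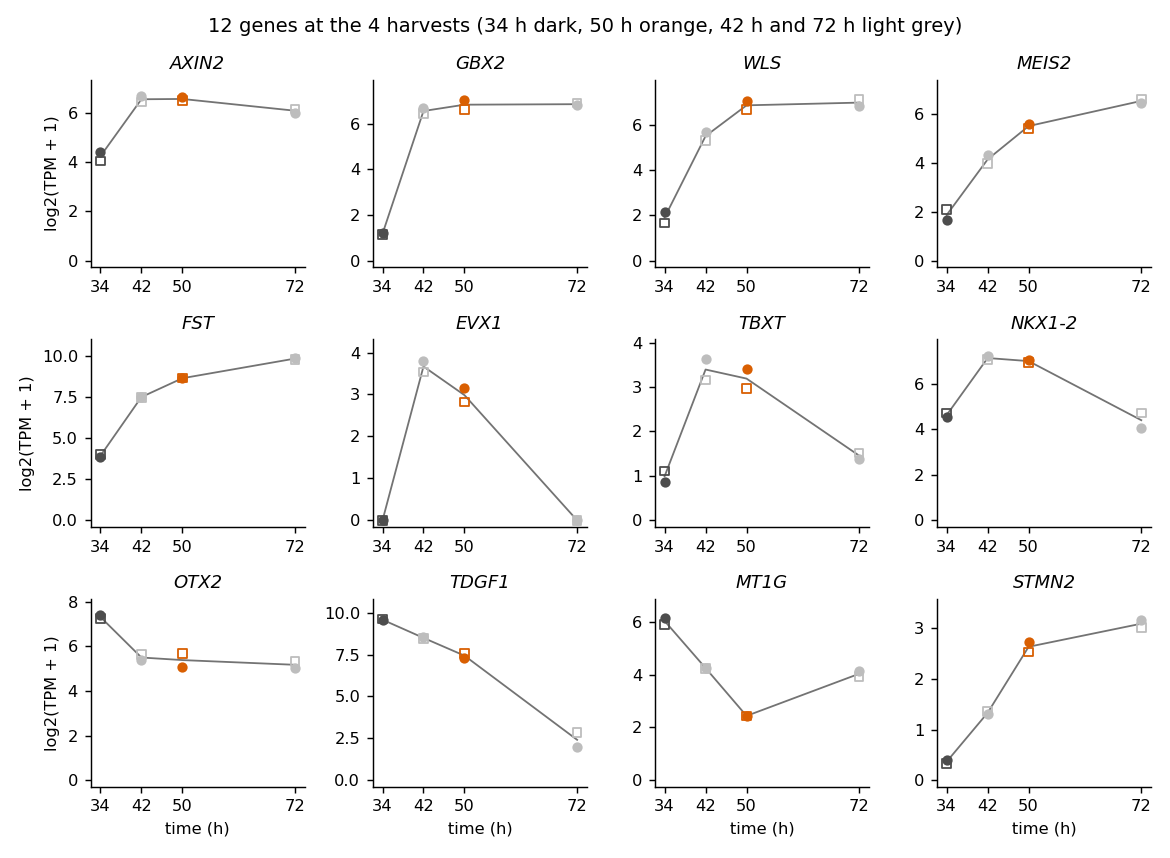
log2(TPM + 1) (y axis) against hours from the start of differentiation (x axis) for 12 genes in all 8 libraries; circles are replicate 1, squares replicate 2, and the line joins the means. AXIN2, GBX2 and OTX2 lie near their 50 h level by 42 h, while FST, MEIS2, WLS and TDGF1 lie between the 34 h and 50 h levels at 42 h.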

How the data were processed

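Poly(A) RNA was sequenced as paired ends, per the labels' protocols. The authors deposited TPM per Ensembl gene; Salmon 1.9.0 and GRCh38 are named in the submitters' processing notes, and the strand setting is not given in the sources used here. Each column summed to 1000000. The 37951 Ensembl entries were summed to 35940 gene names, and 35003 entries matched GENCODE 29, the source of positions. The 14908 genes reaching 1 TPM in 2 or more of 8 libraries were fitted on log2(TPM + 1) by limma 3.58.1 (R 4.3.3, variance trend on) over all 8 libraries, with Benjamini-Hochberg adjustment. An exact permutation test of 2 against 2 libraries cannot go below 0.333, so none was used. The procedure was run on simulated data with independent noise and with changes planted only in genes above about 5 TPM. That run does not bear on lower genes or on the batches. Members, lists and tests were chosen with earlier results of these data known. Genes were named from the lists, or as the 12 highest rises and falls among called genes that reached 5 TPM on average at one time and changed by 1 or more within each replicate. EIF3C, ECEL1 and the genes of the closing paragraphs lie outside this rule and were named after their values were seen. The replicate numbers are batches by label; replicate differences at 34 h and 50 h correlated at 0.195. Some listed genes are not reported here.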

Additional observations from a re-analysis of the deposited data

How the results depend on the processing

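The count of 933 called genes (525 raised, 408 lowered) stayed within 1.5 times under a pseudocount of 0.1 (903), no filter (686), a mean of at least 5 TPM (839), TMM rescaling, a trimmed mean of ratios between libraries (966), quantile normalization (940), no mitochondrially encoded genes (937), no variance trend (883), Ensembl entries kept apart (851) and the replicate block (933, of which 523 raised). The share raised was 56.3%, and 47.6% after TMM rescaling. With the 2 time points fitted alone the count was 431 (235 raised, 196 lowered), and against a minimum log2 change of 1 it was 84 (66 raised, 18 lowered). Leaving out 1 library gave 398 to 793 calls, 239 to 453 raised and 149 to 341 lowered. Of 171 called genes recomputed, 93 kept their call under each alternative but the minimum change, none reversed, 78 lost it without 1 library, and 6 lost it with the replicate block, which changed no call of the other 165. The 14 calls between 42 h and 50 h became 8 with no filter, 24 at a mean of at least 5 TPM, 27 with no variance trend, 0 by limma with the 2 time points alone (1089 at an unadjusted p under 0.05, no other tool run), 7 in the block fit by replicate and 1 to 8 without 1 library. The promoter share of raised genes was 8.56% for the shorter CTTTGA. At a mean of at least 5 TPM the median of the secreted WNT antagonists turned to -0.66 and that of the neural border and crest list to -0.061. Leaving out 1 library gave the NODAL pathway a median between -0.061 (no 34 h replicate 2) and 0.15. Depth is unknown and limits the lowest levels.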

Other observations

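Several large changes lay outside the lists and were named after their values were seen. Each but TUBB2B, which was not recomputed, kept its call in all 17 other settings. FOXB1, a forkhead gene of the caudal neural plate, had 13.9 and 14.4 TPM at 34 h against 104 and 89.7 TPM at 50 h (2.68 ± 0.12 (SE), limma adjusted p = 2.86e-05), and HES3, a repressor of the HES family known from the isthmus, had 117 and 81.8 TPM at 34 h against 354 and 247 TPM at 50 h (1.59 ± 0.20 (SE), limma adjusted p = 0.00321). DACT1, which binds Dishevelled, had 2.41 and 3.21 TPM at 34 h against 40.6 and 37.4 TPM at 50 h (3.40 ± 0.17 (SE), limma adjusted p = 3.79e-05). SEMA3C, a secreted guidance cue, had 0.228 and 0.203 TPM at 34 h against 12.4 and 11.4 TPM at 50 h (3.41 ± 0.16 (SE), limma adjusted p = 3.79e-05). MMP2, a matrix protease, had 14.1 and 16.6 TPM at 34 h against 72.3 and 55.5 TPM at 50 h (limma adjusted p = 0.000241), and PRTG, which encodes protogenin, had 4.13 and 4.20 TPM at 34 h against 40.5 and 36.9 TPM at 50 h (limma adjusted p = 4.56e-05). TUBB2A, a beta-tubulin of young neurons, had 119.7 and 103 TPM at 34 h against 722 and 595 TPM at 50 h (2.55 ± 0.14 (SE), limma adjusted p = 6.21e-05). Its near copy TUBB2B had 463 and 419.7 TPM at 34 h against 1174 and 999.8 TPM at 50 h, so the split of reads between the 2 is uncertain.

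On the lowered side, HMOX1, which degrades heme and shares metal and stress inducers with the metallothioneins, had 56.5 and 53.3 TPM at 34 h against 13.1 and 10.8 TPM at 50 h (-2.11 ± 0.15 (SE), limma adjusted p = 0.000168). PHC1, a Polycomb gene that is high in pluripotent cells, had 246 and 223 TPM at 34 h against 71.3 and 75.2 TPM at 50 h (-1.66 ± 0.12 (SE), limma adjusted p = 0.000160). GAL, the neuropeptide galanin, had 86.5 and 82.7 TPM at 34 h against 22.6 and 20.9 TPM at 50 h (-1.91 ± 0.16 (SE), limma adjusted p = 0.000341), and IGFBP3, a carrier of insulin-like growth factors, had 64.7 and 60.3 TPM at 34 h against 16.1 and 21.00 TPM at 50 h (-1.71 ± 0.21 (SE), limma adjusted p = 0.00230). GRB7, an adaptor of receptor tyrosine kinases, had 69.9 and 58.04 TPM at 34 h against 18.2 and 14.5 TPM at 50 h (-1.90 ± 0.17 (SE), limma adjusted p = 0.000540). For all of these genes both 50 h libraries lay clear of both 34 h libraries, as in all 933 called genes and in 48.4% of tested genes.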
